A study of Mus musculus with 20 samples.

Results

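The 10 genes of major histocompatibility complex (MHC) class I presentation examined here were the classical heavy chains H2-K1 and H2-D1, their light chain B2m, the peptide transporter subunits Tap1 and Tap2, tapasin (Tapbp), the immunoproteasome subunits Psmb8, Psmb9 and Psmb10, and the class I transactivator Nlrc5. They were taken by symbol from the 48440 genes of a table of liver RNA-seq counts, each symbol on 1 line, and all 10 were among the 16071 genes that passed the filter on low counts. The livers came from 20 female wild-type C57BL/6 mice (C57BL/6J in the study's methods), 8 weeks old when the experiment was carried out, 5 in each of 4 groups. Every mouse was injected with an antibody for 5 weeks, either a neutralizing monoclonal antibody against acyl coenzyme A binding protein (αACBP) or an IgG2a isotype control antibody. The mice also received corticosterone (CORT), the main adrenal glucocorticoid of rodents, or its vehicle. The control group is called Isotype + Vehicle, the group given the hormone alone Isotype + CORT, and the corresponding groups given the neutralizing antibody αACBP + Vehicle and αACBP + CORT, so that no group was without an injected immunoglobulin. The series was made to ask whether the antibody prevents metabolic effects of glucocorticoid excess, and the comparisons below ask how class I genes responded to each treatment.

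MHC class I molecules carry peptides cut from intracellular proteins to the cell surface, where CD8 T cells and natural killer cells read them. The peptides are produced by the proteasome, whose constitutive catalytic subunits are replaced by those of the immunoproteasome under interferon, and are pumped into the endoplasmic reticulum by the Tap1-Tap2 transporter. Tapasin bridges the transporter and the empty heavy chain, which leaves for the surface only with B2m and a peptide. Nlrc5 enters the nucleus and binds, with the RFX, CREB and NF-Y factors, to class I promoters. Hepatocytes make class I molecules at low levels compared with leukocytes and the cells lining the sinusoids.

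In the GRCm39 assembly with GENCODE M39, 7 of the 10 genes lie on chromosome 17. Tapbp is at 34134873 to 34148267 on the plus strand and H2-K1 at 34214987 to 34219321 on the minus strand. Next come Psmb9 (34400960 to 34406738, minus strand), Tap1 (34405996 to 34416199, plus strand), Psmb8 (34416690 to 34420428, plus strand) and Tap2 (34422501 to 34435829, plus strand), while H2-D1 lies apart at 35481691 to 35486475 on the plus strand. B2m is at 121977957 to 121983594 on the plus strand of chromosome 2, and chromosome 8 holds Nlrc5 (95160984 to 95253900, plus strand) and Psmb10 (106662362 to 106665077, minus strand). The start sites of Psmb9 and Tap1 are 742 bases apart in opposite orientation, and 19.6% of the exon bases of Psmb9 and 12.4% of those of Tap1 lie under exons of the other gene. Exons of genes on the opposite strand also covered 33% of the exon bases of Tapbp, 26.8% of H2-K1, 24.2% of H2-D1, 14.6% of Tap2, 14.6% of Psmb8 and 0.918% of Nlrc5, but none of those of B2m and Psmb10. Since the strand setting of the counting is not given in the sources used here, reads of these overlaps cannot be assigned to 1 gene. The counting kept features that are not unique, so a read of an overlap may have been counted for both genes. Calls of Tap1 and Psmb9 therefore cannot be taken as fully separate. Words of 100 bases that also occur in other genes made up 10.4% of H2-K1 and 12.2% of H2-D1, among them words of H2-Q and H2-T heavy chains, so that the counts of class I heavy chains are uncertain where reads could come from either gene.

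The promoter sequences are shown because several of these genes are known targets of the same factors. Windows from 250 bases before to 50 bases after a transcription start were taken from RefSeq on GRCm38.p6, another build than that of the gene positions above, and 8 of the 10 genes had one. Tap2 and Nlrc5 had none. Capitals mark matches on either strand to 6 motifs: GGGATTCCC (kappa B site of class I genes), GAAANNGAA (core of the interferon-stimulated response element), TTCNNNGAA (core of the gamma-activated site), TGACG (core of the X2 box), CCAAT (core of the Y box, bound by NF-Y) and ACANNNTGT (core of the glucocorticoid response element). The first pair are the heavy chains, at chr17:34000284-34000583 on the minus strand (the second of the windows listed for H2-K1) and chr17:35262844-35263143 on the plus strand.
H2-K1: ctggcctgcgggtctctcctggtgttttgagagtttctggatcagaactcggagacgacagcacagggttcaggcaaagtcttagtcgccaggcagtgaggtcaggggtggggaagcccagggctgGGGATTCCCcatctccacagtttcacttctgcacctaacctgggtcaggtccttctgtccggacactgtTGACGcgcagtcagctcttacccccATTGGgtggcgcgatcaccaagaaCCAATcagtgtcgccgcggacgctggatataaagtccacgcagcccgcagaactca
H2-D1: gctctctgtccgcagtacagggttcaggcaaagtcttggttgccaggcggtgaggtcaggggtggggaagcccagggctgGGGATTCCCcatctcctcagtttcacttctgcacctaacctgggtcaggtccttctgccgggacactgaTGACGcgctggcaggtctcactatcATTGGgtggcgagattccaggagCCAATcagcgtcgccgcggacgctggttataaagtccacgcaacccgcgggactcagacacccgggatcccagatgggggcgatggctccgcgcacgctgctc
B2m at chr2:122147437-122147736 and Psmb8 at chr17:34197945-34198244, both on the plus strand, are shown for their interferon-type motifs, and Tap1 at chr17:34187306-34187605 on the plus strand because 275 of its 300 bases also form the opposite strand of the Psmb9 window.
B2m: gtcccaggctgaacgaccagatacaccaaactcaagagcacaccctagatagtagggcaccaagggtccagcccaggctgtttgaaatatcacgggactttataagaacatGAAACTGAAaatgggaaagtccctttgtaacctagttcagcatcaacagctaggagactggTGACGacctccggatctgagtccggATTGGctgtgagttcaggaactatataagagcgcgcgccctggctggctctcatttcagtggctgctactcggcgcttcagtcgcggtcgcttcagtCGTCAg
Tap1: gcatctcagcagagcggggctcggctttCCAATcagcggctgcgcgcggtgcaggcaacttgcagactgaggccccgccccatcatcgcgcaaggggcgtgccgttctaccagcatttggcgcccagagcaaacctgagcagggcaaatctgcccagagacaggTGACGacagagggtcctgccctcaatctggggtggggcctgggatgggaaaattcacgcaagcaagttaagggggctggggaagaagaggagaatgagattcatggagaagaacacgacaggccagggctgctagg
Psmb8: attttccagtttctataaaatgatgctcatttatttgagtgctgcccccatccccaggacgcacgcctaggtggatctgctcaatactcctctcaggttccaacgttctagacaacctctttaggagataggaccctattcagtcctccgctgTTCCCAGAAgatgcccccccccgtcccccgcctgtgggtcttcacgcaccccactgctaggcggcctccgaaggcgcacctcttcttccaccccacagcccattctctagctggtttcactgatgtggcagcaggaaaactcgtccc
Both heavy chains had the GGGATTCCC word, which occurred in 0.353% of the 32851 promoter windows of RefSeq, and their windows shared an identical run of 47 bases. CCAAT was found in 6 of the 8 genes (B2m, Tapbp, H2-K1, Psmb9, Tap1 and H2-D1) against 37.4% of all windows, and TGACG in 5 (all of these but Tapbp) against 20.8%. For both motifs the matches of Tap1 and Psmb9 are the same bases read on opposite strands, so that each count holds that site under both genes. The shares are of windows and the counts of genes, so the comparison is only a rough description. GAAANNGAA occurred only in B2m among the 8 genes (8.56% of all windows), TTCNNNGAA only in Psmb8 (8.3%), and ACANNNTGT in none of them (6.85%). A match of letters is no proof of a bound site, and a missing match says only that the letters are not in this window.

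Total counts per liver ran from 14934926 to 20299999. In counts scaled to a common library size (CPM, here scaled by TMM library factors) 3 counts were worth 0.201 CPM at the lowest total, a floor that takes in counting error and no other. Across genes, log2 CPM of livers in the same group correlated at 0.869 to 0.958. The liver αACBP + Vehicle replicate 5 stood apart. Its summed level of the constitutive proteasome subunits Psmb5, Psmb6 and Psmb7 was 107 CPM against 299 to 362 CPM in the other livers of its group, and its hepatocyte markers summed to 36394 CPM against a group median of 80934 CPM. Hepatocyte markers (5 of the 6 listed were in the table) otherwise dominated, with group medians of their sum between 80934 and 112845 CPM. Calls that rest on this liver are given with and without it.

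Per kilobase of annotated exon in control livers (Isotype + Vehicle, mean ± SD, n = 5), B2m had the highest level at 1113 ± 63.1 CPM per kb, followed by H2-K1 at 610.02 ± 14.6 and H2-D1 at 239 ± 27.8 CPM per kb. The processing genes were far lower, with Psmb10 at 38.9 ± 4.28, Tapbp at 28.4 ± 3.77 and Psmb8 at 17.2 ± 1.39 CPM per kb, each without overlap with its neighbours in this order. That order depends on the exon lengths of GENCODE M39, whose error the spread of livers does not take in. In CPM, Tapbp (99.2 to 141) was above Psmb10 (56.2 to 74.7), which overlapped with Psmb8 (53.7 to 65.7). Psmb9 (9.55 ± 0.405), Tap2 (8.92 ± 0.461), Tap1 (7.44 ± 1.25) and Nlrc5 (6.26 ± 2.63 CPM per kb) had overlapping ranges from one to the next, so that the order of these 4 is not resolved. The light chain and the heavy chains were thus abundant and the transporter, immunoproteasome and Nlrc5 mRNAs scarce in these livers.

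CORT lowered 5 of the 10 genes in mice given the isotype antibody, namely the immunoproteasome subunits Psmb8 and Psmb9, both transporter subunits and the heavy chain H2-D1 (edgeR's quasi-likelihood test, adjusted p of 0.05 or less over 16071 genes). All 10 had a negative log2 fold change, with a median of -0.61 against 0.00 over all genes tested. At this limit 1.86% of all genes tested were called lower. Only Psmb8 also passed a log2 fold change of 1 in size, which 1.43% of all genes did in this direction. In 5 genes (H2-K1, H2-D1, Tap2, Psmb8 and Psmb9) every Isotype + CORT liver lay below every Isotype + Vehicle liver, against 3.02% of all genes. Markers of Kupffer cells and other leukocytes were lower in the same comparison, as described beside those genes. In such bulk samples fewer cells of a type and less RNA per cell cannot be told apart.

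αACBP raised 3 of the 10 genes in mice that received CORT, namely Tap1, Psmb8 and H2-D1 (same test), where 0.635% of all genes tested were called higher. All 10 had a positive log2 fold change, with a median of 0.61 against 0.01 over all genes. Tap1 and Psmb8 passed a log2 fold change of 1, as did 0.504% of all genes in this direction. In 6 genes (H2-K1, H2-D1, Tap1, Tap2, Tapbp and Psmb8) all αACBP + CORT livers lay above all Isotype + CORT livers, against 1.91% of all genes. This comparison and the previous one share the Isotype + CORT livers, so that a low level in that group enters both with opposite sign, and the turn of sign is not independent evidence.

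**Figure D1:**
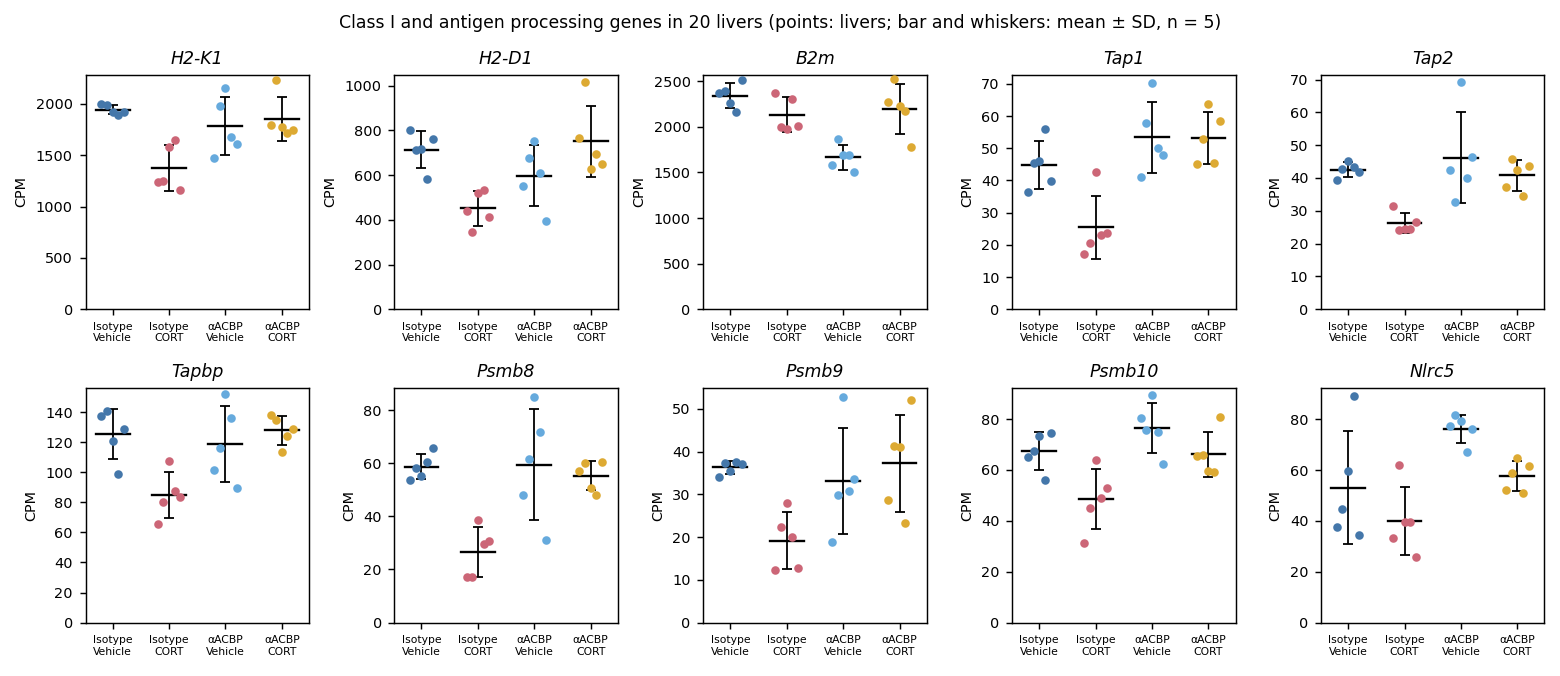
Level of each of the 10 genes in CPM (y axis, from 0) in the 4 groups, with a point for each liver and the mean ± SD (n = 5) in black. The Isotype + CORT livers are lowest for most genes, as for Psmb8 with 17.005 to 38.8 CPM against 53.7 to 65.7 CPM in Isotype + Vehicle, whereas B2m is lowest in αACBP + Vehicle.

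Psmb8 (LMP7), the chymotrypsin-like subunit of the immunoproteasome, showed the largest fall of the 10 genes with CORT. It was at 53.7, 58.2, 55.2, 60.5 and 65.7 CPM in the Isotype + Vehicle livers, in order of replicate number, and at 17.3, 17.005, 38.8, 29.7 and 30.8 CPM in the Isotype + CORT livers. With the antibody it was at 47.9, 61.5, 85.02, 71.9 and 31.1 CPM without CORT and at 56.9, 59.95, 50.8, 48.2 and 60.5 CPM with CORT. The Isotype + CORT livers did not overlap with Isotype + Vehicle or αACBP + CORT, and the αACBP + Vehicle livers spread around all of these, from the level of the highest Isotype + CORT livers to above every control. The log2 fold change was -1.13 ± 0.22 (SE) with CORT under isotype, 45.6% of the control level (adjusted p = 0.00385, edgeR), and 1.05 ± 0.22 with αACBP under CORT (adjusted p = 0.0155).

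Psmb9 (LMP2), the neighbour of Tap1, replaces the constitutive subunit Psmb6. Its levels were 33.9, 37.4, 35.6, 37.5 and 37.1 CPM in Isotype + Vehicle and 12.3, 22.4, 27.97, 20.1 and 12.8 CPM in Isotype + CORT livers. In αACBP + Vehicle they were 18.8, 29.7, 52.9, 30.8 and 33.6 CPM, and in αACBP + CORT 28.7, 41.3, 40.97, 23.2 and 52.1 CPM. The controls were tightly grouped and all above the Isotype + CORT livers, while both antibody groups were spread and αACBP + CORT overlapped with Isotype + CORT. Psmb9 had a log2 fold change of -0.92 ± 0.25 with CORT under isotype (edgeR adjusted p = 0.0343). Its log2 fold change of 0.96 ± 0.25 with αACBP under CORT had an adjusted p of 0.0508 by edgeR's quasi-likelihood test, just above the limit.

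Psmb10 (MECL-1), the third inducible subunit, ranged over 56.2 to 74.7 CPM in Isotype + Vehicle and 31.4 to 63.8 CPM in Isotype + CORT, where replicate 1 was lowest and replicate 3 lay within the control range. It ranged over 62.5 to 89.4 CPM in αACBP + Vehicle and 59.1 to 80.8 CPM in αACBP + CORT. Its log2 fold changes of -0.48 ± 0.16 with CORT and 0.45 ± 0.16 with αACBP under CORT did not pass (edgeR adjusted p = 0.116 and 0.211).

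Tap1 and Tap2 form the heterodimeric transporter. Tap1 stood at 36.3, 45.5, 46.05, 55.9 and 39.7 CPM in the Isotype + Vehicle livers and at 17.3, 20.7, 42.6, 22.99 and 23.6 CPM in the Isotype + CORT livers, where replicate 3 was within the control range and the other 4 below it. In the αACBP + Vehicle livers it was at 41.01, 57.8, 70.2, 50.1 and 47.8 CPM and in the αACBP + CORT livers at 45.2, 52.9, 63.7, 45.3 and 58.5 CPM, above every Isotype + CORT liver. Tap1 had a log2 fold change of -0.81 ± 0.20 with CORT under isotype (edgeR adjusted p = 0.0228) and of 1.06 ± 0.20 with αACBP under CORT, a 2.09-fold rise (edgeR adjusted p = 0.00720). Without Isotype + CORT replicate 3 the former was -1.08 and the latter 1.33.

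For Tap2 the values were 39.3, 42.8, 45.2, 43.5 and 41.8 CPM in Isotype + Vehicle and 31.6, 24.2, 24.6, 24.5 and 26.5 CPM in Isotype + CORT, with a clear gap between the groups. They were 42.4, 32.7, 69.2, 40.1 and 46.3 CPM in αACBP + Vehicle, where replicate 3 was highest, and 37.4, 45.9, 42.5, 34.4 and 43.7 CPM in αACBP + CORT. Tap2 fell to 61.8% of the control level with CORT (log2 fold change -0.70 ± 0.17, edgeR adjusted p = 0.0189). All αACBP + CORT livers were above the Isotype + CORT livers, yet the log2 fold change of 0.63 ± 0.17 did not pass the test (edgeR adjusted p = 0.0622).

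Tapbp, which holds heavy chains next to the transporter, ranged over 99.2 to 141 CPM in Isotype + Vehicle, 65.7 to 108 CPM in Isotype + CORT, 89.4 to 152 CPM in αACBP + Vehicle and 113 to 138 CPM in αACBP + CORT. Its log2 fold change was -0.56 ± 0.16 with CORT (edgeR adjusted p = 0.0522) and 0.59 ± 0.16 with αACBP under CORT (adjusted p = 0.0747). Neither passed by edgeR, although the second pair of groups did not overlap. DESeq2 called Tapbp in both comparisons. With CORT it was also called by voom, with DESeq2's size factors, without the 20 most abundant genes in the library sizes and with the filter of 10 counts.

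Of the classical heavy chains, edgeR called H2-D1. It was at 802, 711, 718, 581 and 761 CPM in Isotype + Vehicle and at 442, 345, 519, 534 and 414 CPM in Isotype + CORT, which did not overlap. With the antibody it was at 551, 675, 754, 610.1 and 394 CPM under vehicle and 766, 1017, 627, 696 and 648 CPM under CORT, the latter above all Isotype + CORT livers. CORT lowered H2-D1 to 63.1% of the control level (log2 fold change -0.66 ± 0.18, edgeR adjusted p = 0.0411), and αACBP under CORT raised it 1.67-fold (log2 fold change 0.74 ± 0.18, edgeR adjusted p = 0.0447). The call with CORT was lost in 10 of 20 fits that left out 1 liver (adjusted p up to 0.102, edgeR), and that with αACBP under CORT in 16 (adjusted p up to 0.12, edgeR) and when only the compared groups were fitted (adjusted p = 0.108, edgeR). With the replicate number as a block, edgeR called H2-D1 in neither comparison (adjusted p = 0.0654 and 0.0794).

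H2-K1 was more abundant. Its Isotype + Vehicle livers were within a narrow range, 1999, 1984, 1919, 1889 and 1925 CPM, and its Isotype + CORT livers were all lower, at 1240.5, 1246, 1578, 1652 and 1163 CPM. In αACBP + Vehicle it was at 1472, 1981, 2159, 1676 and 1609.9 CPM and in αACBP + CORT at 1797, 2232, 1773, 1714 and 1747 CPM. The latter group was above every Isotype + CORT liver, while αACBP + Vehicle overlapped with all 3 other groups. Despite the separation, H2-K1 did not pass edgeR's test in either comparison (log2 fold change -0.50 ± 0.16 with CORT, edgeR adjusted p = 0.0825, and 0.43 ± 0.16 with αACBP under CORT, adjusted p = 0.219). DESeq2 called it in both (adjusted p = 0.00409 and 0.0414). Whether H2-K1 and H2-D1 differed in their change was not tested.

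B2m, the light chain shared by all class I molecules, followed another pattern. It was at 2376, 2399, 2266, 2164 and 2512 CPM in Isotype + Vehicle and at 2374, 1998, 1972, 2304 and 2015 CPM in Isotype + CORT, with overlapping ranges. In αACBP + Vehicle it was at 1586, 1870.4, 1693, 1691 and 1502 CPM, below every Isotype + Vehicle liver, and in αACBP + CORT at 2278, 2524, 2234, 2178 and 1775 CPM. The log2 fold change was -0.14 ± 0.15 with CORT under isotype (edgeR adjusted p = 0.764) and 0.04 ± 0.15 with αACBP under CORT (adjusted p = 0.967).

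Nlrc5 varied most, relative to its mean, among the controls, from 34.4 to 89.2 CPM in Isotype + Vehicle, and overlapped with 25.8 to 61.9 CPM in Isotype + CORT. It ranged over 66.96 to 81.5 CPM in αACBP + Vehicle and over 50.9 to 64.6 CPM in αACBP + CORT, below all αACBP + Vehicle livers. Its log2 fold changes of -0.41 ± 0.22 with CORT and 0.53 ± 0.22 with αACBP under CORT did not pass (edgeR adjusted p = 0.378 and 0.291).

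The calls rested on small margins. For CORT under isotype, edgeR's count of 5 was 2 without Isotype + Vehicle replicate 2 or Isotype + CORT replicate 1, and 3 without Isotype + Vehicle replicate 3 or 5 or Isotype + CORT replicate 2, 4 or 5. For αACBP under CORT the count of 3 was 1 without Isotype + CORT replicate 1 and 5 without Isotype + CORT replicate 3 or αACBP + Vehicle replicate 3. It was 2 or 3 in the further omissions that lost H2-D1, 7 with DESeq2 and 0 when only the 2 groups compared were fitted. The share of all genes that DESeq2 called was not determined, so its count of 7 cannot be set against the share given for edgeR.

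**Figure D2:**
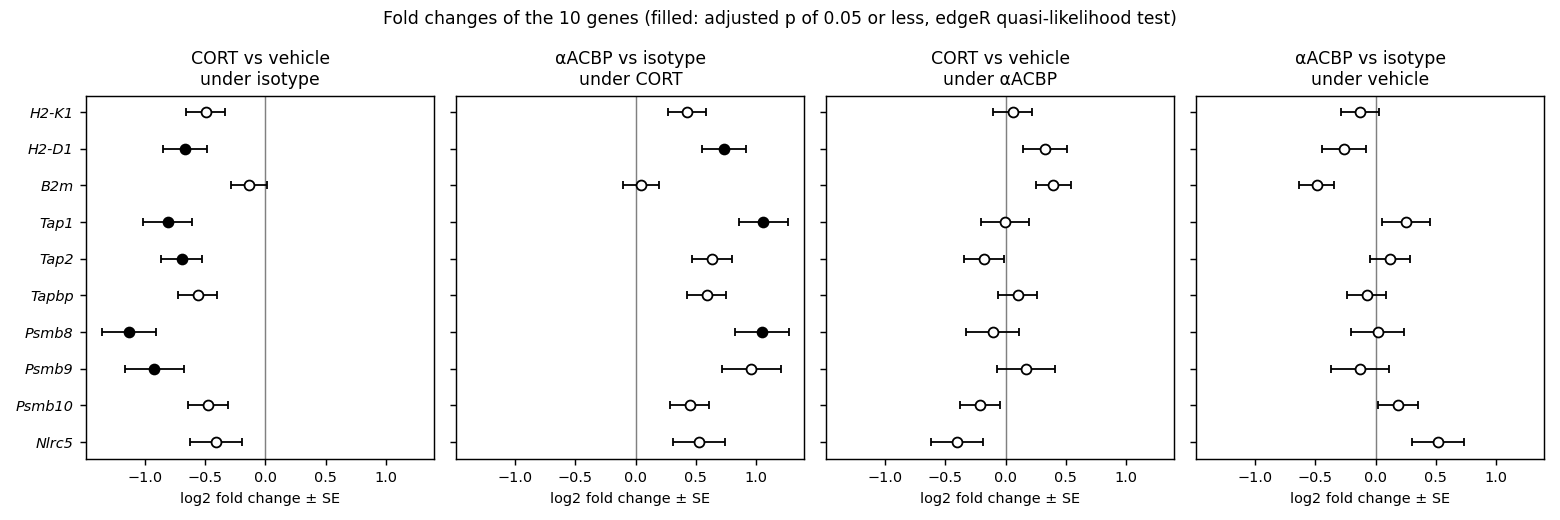
Log2 fold change ± SE (x axis) of the 10 genes (y axis) in 4 comparisons, with filled points at an edgeR adjusted p of 0.05 or less. All points lie below 0 with CORT under isotype and above 0 with αACBP under CORT, and they lie on both sides of 0 with CORT under αACBP and with αACBP under vehicle.

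Under αACBP, CORT lowered or raised none of the 10 genes by edgeR (49 genes or 0.305% of all tested were called in either direction), 1 of the 10 had an unadjusted p under 0.05, and DESeq2 called 1 and voom 0. The log2 fold changes ranged from -0.40 ± 0.22 (Nlrc5) to 0.40 ± 0.15 (B2m, edgeR adjusted p = 0.242), with a median of 0.03 against 0.01 over all genes. There were 5 genes on each side of 0.

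αACBP under vehicle gave no call among the 10 genes by edgeR, where 5.14% of all genes tested were called in either direction. There were 2 genes with an unadjusted p under 0.05, and DESeq2 called 1 and voom 2. B2m had a log2 fold change of -0.49 ± 0.15 (edgeR adjusted p = 0.0503) without overlap of the groups, and Nlrc5 was at 0.52 ± 0.22 (adjusted p = 0.157). B2m passed with DESeq2, voom, DESeq2's size factors, the filter of 10 counts and in 3 fits that left out 1 liver. Nlrc5 passed with voom (0.73, adjusted p = 0.00752) and without Isotype + Vehicle replicate 4, the highest control (0.79, edgeR adjusted p = 0.0187). Without αACBP + Vehicle replicate 5, B2m and Nlrc5 were at -0.46 and 0.52 (edgeR adjusted p = 0.0782 and 0.240). The median log2 fold change of the 10 genes was -0.03 against -0.02 over all genes.

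Between αACBP + CORT and Isotype + Vehicle, which share no liver and differ in both treatments, edgeR called none of the 10 genes (0.0809% of all genes tested were called). None had an unadjusted p under 0.05, and DESeq2 and voom called 0. The log2 fold changes ranged from -0.09 ± 0.15 (B2m) to 0.25 ± 0.20 (Tap1), with SEs from 0.15 to 0.24 and a median of 0.00, and in no gene did the groups separate. Differences of the size of these errors could not have been detected.

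The interaction of both treatments, which tests whether the CORT effect differed with the antibody, was positive in all 10 genes and passed in none by edgeR, where 0.143% of all genes tested passed in either direction. An unadjusted p under 0.05 was found in 8, a count that cannot be judged here because the share of all genes at that limit was not determined. DESeq2 called 2 and voom 0. H2-D1 came nearest at a log2 difference of 1.00 ± 0.26 (edgeR adjusted p = 0.0917), followed by Psmb8 at 1.03 ± 0.31, Psmb9 at 1.09 ± 0.34 and Tap1 at 0.81 ± 0.28 (adjusted p = 0.163, 0.187 and 0.249). Nlrc5 was at 0.01 ± 0.30, and its sign turned in 6 of the other settings. DESeq2's calls included H2-D1 (adjusted p = 0.00714). By edgeR the CORT effects with and without the antibody are not shown to differ for any of these genes.

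The immunoproteasome subunits were also compared with the constitutive subunits they replace, within each liver, as a ratio of counts that does not depend on library size. By edgeR, Psmb5, Psmb6 and Psmb7 themselves did not pass in any of the comparisons between groups, with log2 fold changes from 0.09 ± 0.19 to 0.38 ± 0.27 with CORT and from -0.54 ± 0.27 to -0.02 ± 0.19 with αACBP under CORT (lowest edgeR adjusted p = 0.56 and 0.413). DESeq2 and voom called 0 of them in these 2 comparisons, and 0 had an unadjusted p under 0.05. With αACBP under vehicle their log2 fold changes were -0.27, -0.15 and -0.67, and voom called Psmb7 (adjusted p = 0.0446), which edgeR and DESeq2 did not (adjusted p = 0.141 and 0.0733). The ratios are of counts, not of molecules, since gene lengths differ.

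Psmb8 to Psmb5 was 0.657, 0.701, 0.620, 0.778 and 0.830 in the Isotype + Vehicle livers and 0.227, 0.190, 0.440, 0.335 and 0.324 in the Isotype + CORT livers. It was 0.594, 0.764, 1.06, 1.01 and 1.12 in αACBP + Vehicle and 0.665, 0.647, 0.650, 0.498 and 0.771 in αACBP + CORT. The Isotype + CORT livers were below all livers of the other groups. On the log2 scale the ratio differed by -1.30 with CORT under isotype and by 1.14 with αACBP under CORT (adjusted p = 0.0238 for both, two-sided exact permutation tests with 252 arrangements, smallest possible p = 0.00794, adjusted over 12 comparisons of ratios). CORT under αACBP gave -0.47 (adjusted p = 0.0952, exact permutation test), which passed without αACBP + Vehicle replicate 1 (-0.61, adjusted p = 0.0317, exact permutation test), and αACBP under vehicle gave 0.31 (adjusted p = 0.171, exact permutation test).

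The Psmb9 to Psmb6 ratio had group means of 0.195 ± 0.0111 (SD, n = 5) in Isotype + Vehicle, 0.0902 ± 0.0293 in Isotype + CORT, 0.250 ± 0.184 in αACBP + Vehicle and 0.197 ± 0.0742 in αACBP + CORT. The difference was -1.17 on the log2 scale with CORT under isotype (adjusted p = 0.0238, exact permutation test) and 1.10 with αACBP under CORT (adjusted p = 0.0381, exact permutation test). Under αACBP, CORT changed it by -0.14, which turned to 0.22 without αACBP + Vehicle replicate 5, and αACBP under vehicle by 0.08, which turned to -0.28 without that liver. Neither of these passed, and the call with αACBP under CORT was lost on leaving out any of 7 livers, with values of 0.93 to 1.28.

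Psmb10 to Psmb7 had group means of 0.842 ± 0.171, 0.487 ± 0.205, 1.73 ± 0.881 and 0.943 ± 0.312 (SD, n = 5) in the same order of groups. It differed by -0.87 with CORT under isotype, by 1.00 with αACBP under CORT, and by -0.81 with CORT under αACBP (adjusted p = 0.0476 for each, exact permutation tests). With αACBP under vehicle it was higher by 0.94 (adjusted p = 0.0238), and all αACBP + Vehicle livers were above all Isotype + Vehicle livers. The denominator Psmb7 was itself at a log2 fold change of -0.67 in this comparison, as given above. Without αACBP + Vehicle replicate 5, whose ratio was 3.25, the value for αACBP under vehicle was 0.69 (adjusted p = 0.0381, exact permutation test) and that of CORT under αACBP was -0.56 (adjusted p = 0.107, exact permutation test). The calls of CORT under isotype, αACBP under CORT and CORT under αACBP were each lost on leaving out any of 8 livers, and that of αACBP under vehicle with any of 3. Exons of Nek6 on the opposite strand cover 46.8% of the exon bases of Psmb7, and the part of Nek6 reads in this ratio was not tested.

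**Figure D3:**
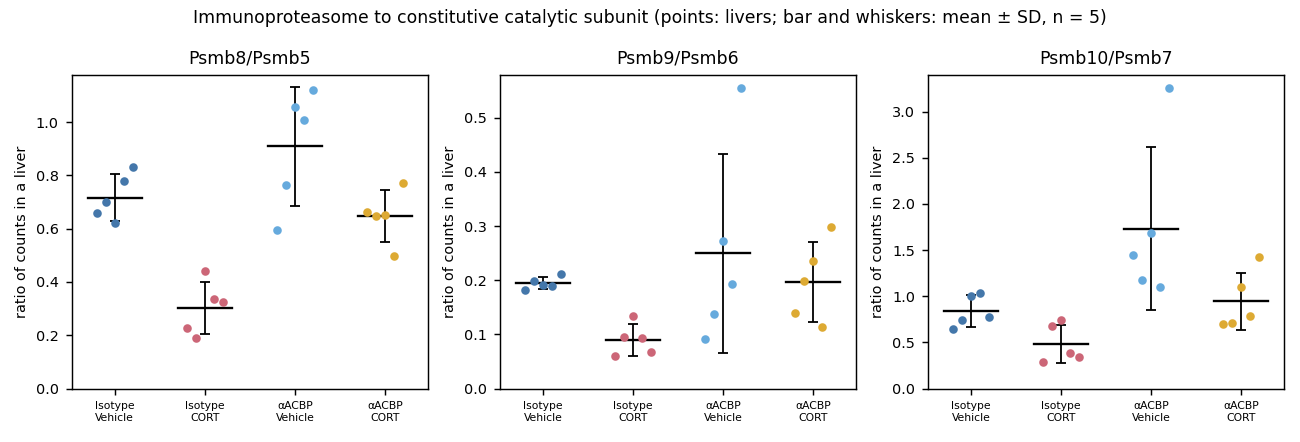
Ratio of counts of each immunoproteasome subunit to its constitutive counterpart in each liver (y axis, from 0), with the mean ± SD of 5 livers per group in black. The Isotype + CORT livers have the lowest mean in each panel, and 1 liver of αACBP + Vehicle is at 3.25 for Psmb10/Psmb7.

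The other class I heavy chains of the Q, T and M regions of the complex were examined as a further list, and 12 of 14 passed the filter on low counts. CORT under isotype lowered 4 of them (H2-Q7, H2-Q6, H2-T10 and H2-T23) by edgeR and raised none, where 1.86% of all genes tested were called lower, and 11 of 12 had a negative log2 fold change, with a median of -1.27. αACBP under CORT raised 1 (H2-Q7), where 0.635% of all genes were called higher, and 10 of 12 had a positive value, with a median of 0.64. Words shared with other genes were not measured for this list, so that calls of similar heavy chains cannot be taken as separate. Of these genes, H2-T23 encodes Qa-1, the ligand of inhibitory receptors of natural killer cells, and H2-Q7 encodes Qa-2.

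H2-Q7 was at 100.02, 90.1, 117, 129 and 92.004 CPM in Isotype + Vehicle and at 12.5, 25.6, 47.9, 46.1 and 15.3 CPM in Isotype + CORT. In αACBP + Vehicle it was at 77.2, 103, 142, 99.1 and 99.6 CPM and in αACBP + CORT at 65.8, 113, 104, 78.9 and 99.6 CPM. Every Isotype + CORT liver was below every liver of the 3 other groups. CORT lowered it to 28% of the control level (log2 fold change -1.84 ± 0.28, edgeR adjusted p = 0.000722), and αACBP under CORT raised it 3.12-fold (log2 fold change 1.64 ± 0.28, edgeR adjusted p = 0.00476), a call lost when only these 2 groups were fitted (adjusted p = 0.0587).

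The log2 fold change with CORT was -1.78 ± 0.38 for H2-Q6 (edgeR adjusted p = 0.0129), -1.27 ± 0.30 for H2-T10 (adjusted p = 0.0153) and -0.73 ± 0.18 for H2-T23 (adjusted p = 0.0207). The H2-T10 call was lost with voom (-1.07, adjusted p = 0.0783) and when only the compared groups were fitted (edgeR adjusted p = 0.0756). With αACBP under CORT these genes were at 1.42 ± 0.38, 1.02 ± 0.30 and 0.52 ± 0.18, none of which passed (edgeR adjusted p = 0.0768, 0.100 and 0.173). H2-Q10, a secreted heavy chain made by the liver, was the most abundant of the list at 2608 to 3194 CPM in Isotype + Vehicle and 1784 to 2339 CPM in Isotype + CORT. Those groups did not overlap, but its log2 fold change of -0.40 ± 0.16 did not pass (edgeR adjusted p = 0.205). H2-Q1, at 19.98 to 31.5 CPM in Isotype + Vehicle, was at 0, 0.550, 9.66, 6.58 and 3.67 CPM in Isotype + CORT (log2 fold change -2.60 ± 0.70, edgeR adjusted p = 0.0520).

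**Figure D4:**
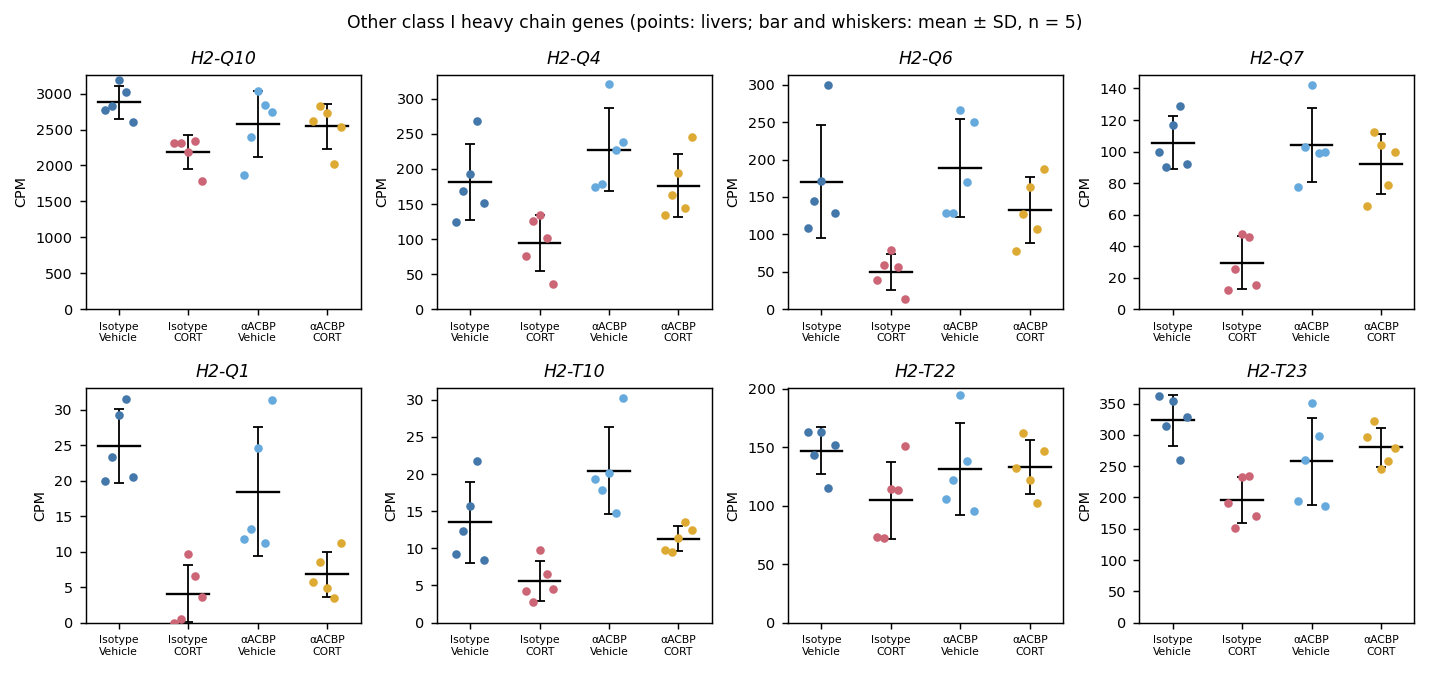
Level in CPM (y axis, from 0) of 8 other class I heavy chain genes in each liver, with the mean ± SD of 5 livers per group in black. H2-Q7 in Isotype + CORT (12.5 to 47.9 CPM) is below all other livers, whereas H2-Q10 is at 1784 CPM or more in every liver.

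Genes that serve class I presentation without being specific to it gave few calls. Of 10 genes of peptide loading and trimming (among them the chaperone Calr and the aminopeptidase Erap1), edgeR, DESeq2 and voom called 0 with CORT under isotype and 0 with αACBP under CORT, and 1 had an unadjusted p under 0.05 in each. Of 16 genes of the proteasome core and its activator, the same tools called 0 in both comparisons, with 3 and 4 at an unadjusted p under 0.05 and medians of 0.11 and -0.21. The interferon-inducible activator subunits Psme1 and Psme2 had log2 fold changes of -0.42 ± 0.17 and -0.39 ± 0.15 with CORT (edgeR adjusted p = 0.201 and 0.180). αACBP under vehicle lowered 2 genes of each of these lists (Pdia3 and Lap3, Psma2 and Psmb1), where 2.36% of all genes were called lower, and all 16 core and activator genes had negative values, with a median of -0.48. DESeq2 called 3 and 5 genes of these lists and voom 4 and 5. Without αACBP + Vehicle replicate 5, an omission chosen after seeing the data, edgeR called 0 of either list, where 0.819% of all genes were called lower. The median of the core and activator genes was then -0.30, with 15 of 16 negative, and Pdia3, Lap3, Psma2 and Psmb1 had log2 fold changes of -0.72, -0.64, -0.52 and -0.50 (edgeR adjusted p = 0.0551, 0.071, 0.117 and 0.106). Of 7 class I-like molecules such as Mr1 and Cd1d1, edgeR, DESeq2 and voom called 0 in both comparisons (1 and 0 at an unadjusted p under 0.05).

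Among 16 transcription factors known to act on class I genes, edgeR called Irf9, a subunit of the interferon-stimulated gene factor, lower with CORT and higher with αACBP under CORT, and no other. Of all genes tested, 1.86% were called lower and 0.635% higher. DESeq2 called 3 and 1 of the 16 and voom 1 and 1, with 4 at an unadjusted p under 0.05 in each comparison. With αACBP under vehicle edgeR called 0 of them, against 5.14% of all genes in either direction, DESeq2 1 and voom 2. Irf9 was at 52.96, 54.9, 61.6, 66.6 and 47.7 CPM in Isotype + Vehicle and 34.4, 40.5, 46.2, 21.8 and 35.03 CPM in Isotype + CORT, and at 67.5, 61.4, 58.4, 62.4 and 83.6 CPM in αACBP + Vehicle and 72.9, 52.9, 78.8, 52.2 and 63.6 CPM in αACBP + CORT. The Isotype + CORT livers were below those of all other groups. Its log2 fold change was -0.67 ± 0.18 with CORT (edgeR adjusted p = 0.0333) and 0.85 ± 0.18 with αACBP under CORT (edgeR adjusted p = 0.0141). Both calls were lost when only the compared groups were fitted (edgeR adjusted p = 0.0808 and 0.092). Irf1 had a log2 fold change of -0.44 ± 0.24 with CORT, which did not pass the test (edgeR adjusted p = 0.380). Of 6 tested genes of the interferon-gamma pathway edgeR and voom called 0 and DESeq2 1 in each of these 2 comparisons, with 1 and 2 at an unadjusted p under 0.05. With αACBP under vehicle edgeR (adjusted p = 0.0255), DESeq2 and voom each called 1 gene of this list, where edgeR called 5.14% of all genes in either direction. Without αACBP + Vehicle replicate 5 edgeR called Socs3 higher in that comparison. The receptor chain Ifngr1 was at -0.81 ± 0.24 and 0.86 ± 0.24 (edgeR adjusted p = 0.0645 and 0.0811), and Ifng itself was too low to be tested.

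Markers of immune cells moved in the same comparisons. Ptprc (CD45), carried by all leukocytes, had a log2 fold change of -1.53 ± 0.26 with CORT (edgeR adjusted p = 0.000936) and of 1.18 ± 0.26 with αACBP under CORT (edgeR adjusted p = 0.0173). By edgeR it was the called gene among 3 leukocyte markers, where 1.86% of all genes tested were called lower and 0.635% higher. Of these 3 markers DESeq2 and voom called 2 with CORT, and 1 and 0 with αACBP under CORT. The summed level of the 3 markers ranged over 42.2 to 71.0 CPM in Isotype + Vehicle and 15.9 to 39.5 CPM in Isotype + CORT. It ranged over 34.9 to 74.2 CPM in αACBP + Vehicle and 43.5 to 51.2 CPM in αACBP + CORT. Voom called Ptprc with CORT but not with αACBP under CORT, and edgeR lost the latter call when only those groups were fitted (adjusted p = 0.0993). Of 6 Kupffer cell markers, edgeR called 5 lower with CORT (C1qa, Clec4f, Vsig4, Cd5l and Timd4), against 1.86% of all genes tested. With αACBP under CORT it called 2 higher (Clec4f and C1qa), against 0.635% of all genes tested. The 6 markers summed to 316 to 549, 114 to 323, 403 to 726 and 393 to 552 CPM in the same order of groups. Clec4f had log2 fold changes of -1.01 ± 0.24 and 1.42 ± 0.24 (edgeR adjusted p = 0.0150 and 0.00275). DESeq2 called 6 and 4 of these markers and voom 3 and 2. Clec4f held a large part of the sum. It was at 155 to 244 CPM in Isotype + Vehicle and 252 to 424 CPM in αACBP + Vehicle. With αACBP under vehicle 1 of the 6 markers had a positive log2 fold change and 5 a negative one, with a median of -0.40. In that comparison edgeR called 0 of them, against 5.14% of all genes in either direction, and DESeq2 and voom each called 1.

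T and NK cell markers (5 of 7 tested) were near the detection floor, with a summed level of 4.62 to 10.4 CPM in Isotype + Vehicle and 0.0644 to 3.39 CPM in Isotype + CORT, and 3.69 to 9.77 and 2.70 to 5.72 CPM in the antibody groups. edgeR, DESeq2 and voom called 0 of them in both comparisons (1 and 0 at an unadjusted p under 0.05), and all 5 had negative log2 fold changes with CORT. In Isotype + CORT, Ncr1 (which did not pass the filter) was at 0 in all 5 livers and Cd4 in 4 of them, whereas Nkg7 was above 0 in replicates 1 to 4. Zeros were not particular to that group. Ncr1 was also at 0 in αACBP + Vehicle replicates 1, 4 and 5 and αACBP + CORT replicates 2, 3 and 5, and Cd4 in αACBP + Vehicle replicates 2, 4 and 5. Medians of the sums of 4 B cell markers were 17.7, 3.50, 14.7 and 4.97 CPM in the order of groups used above, so that they were low in both CORT groups. By edgeR, 0 of the B cell, dendritic cell (5), neutrophil (2 tested of 3), sinusoidal endothelial (5), stellate (4) and cholangiocyte (4) markers were called in either comparison, and of the hepatocyte markers Apob was called higher with CORT. DESeq2 called 1 dendritic cell marker with CORT and voom 0, and an unadjusted p under 0.05 with CORT was found in 3 B cell, 2 dendritic cell and 1 stellate marker, and with αACBP under CORT in 1 dendritic cell marker. Sinusoidal endothelial markers had summed medians of 217, 180, 214 and 200 CPM. The part of any cell type in the change of the class I genes was not tested.

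**Figure D5:**
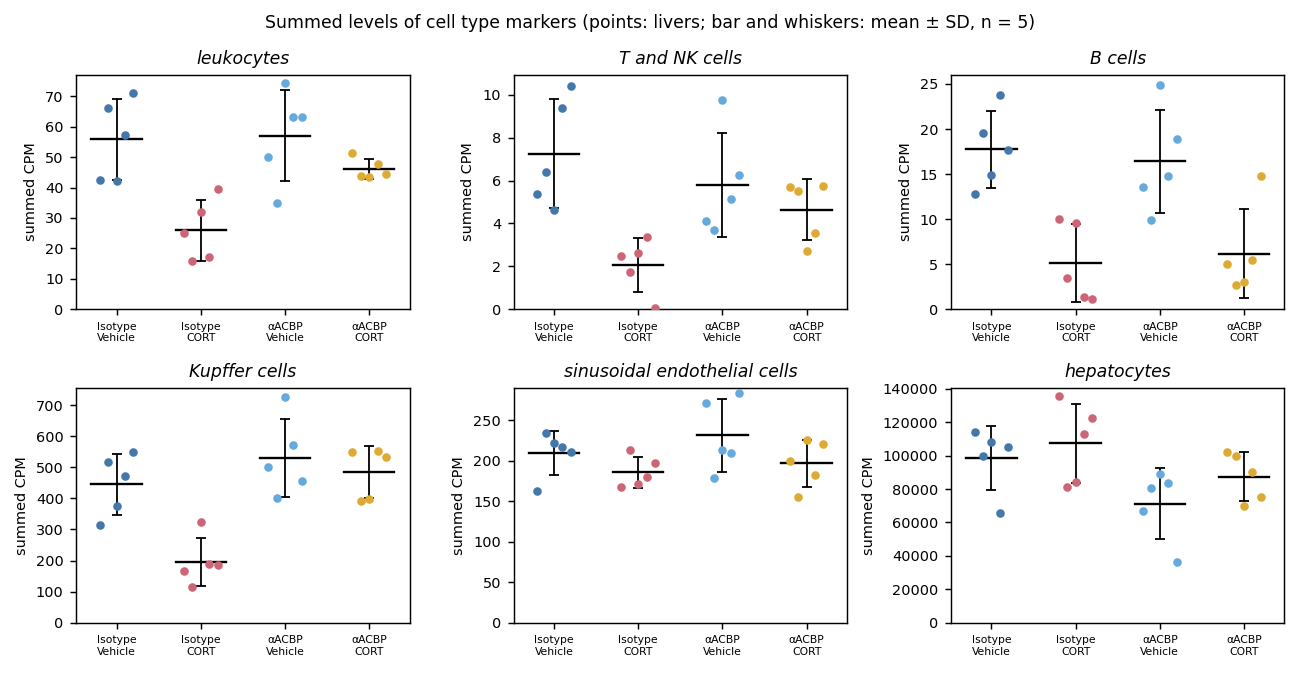
Summed level in CPM (y axis, from 0) of markers of 6 cell types in each liver, with the mean ± SD of 5 livers per group in black. Kupffer cell and leukocyte sums are lowest in Isotype + CORT (medians 186 and 25.1 CPM), B cell sums are low in both CORT groups, and the hepatocyte sum of 1 αACBP + Vehicle liver is 36394 CPM.

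Variation between livers of the same group was examined after subtracting group means, as a description over 20 livers that share library and depth within each liver. Over the 45 pairs of the 10 genes, Pearson's r ranged from -0.33 to 0.79, with a median of 0.35. The mean standardized level of the 10 genes had r = 0.59 with T and NK cell markers, which were near the detection floor. It had r = 0.44 with Kupffer cell, 0.30 with hepatocyte, 0.22 with dendritic cell, 0.14 with B cell and 0.12 with leukocyte markers. With stellate, neutrophil, cholangiocyte and sinusoidal endothelial markers r was 0.09, -0.14, -0.21 and -0.26. All genes of the lists used here, among them the other class I genes, were left out of the search for similar genes. Out of the 13756 remaining genes with a mean of 1 CPM or more, those most like it were Stra13 (r = 0.86), Ppdpf (0.85), 2810402E24Rik (0.84), 2310039H08Rik (0.83) and Lrrc24 (0.83). Without that subtraction, the mean standardized level over the 20 livers was lowest in Isotype + CORT replicate 1 (-1.60 SD units) and highest in αACBP + Vehicle replicate 3 (1.13).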

How the data were processed

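Liver RNA of 20 mice was sequenced by the authors as read pairs, aligned with HISAT2 and counted on genes with HTSeq, which was run in union mode and told to keep features that are not unique. The deposited values are raw counts per gene and liver, without normalization. The submitters' processing notes name the mm10 build and the study's methods GRCm39, so no coordinates were taken from the counting, and gene positions are those of GENCODE M39, which holds 91.4% of the 48440 identifiers. The annotation release and strand setting are not given in the sources used here. Lines for pairs on no gene, a median of 43.7% of pairs per liver, stayed out of library sizes and tests. Each column carries the name of 1 mouse.

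Tests were edgeR 4.0.16 quasi-likelihood tests in R 4.3.3 in 1 model of the 4 groups without covariates, after filterByExpr, with library factors by TMM and robust dispersion, with Benjamini-Hochberg adjustment over 16071 genes. A gene was called at an adjusted p of 0.05 or less. Counts at an unadjusted p under 0.05 stand without the share of all genes at that limit, which was not determined. The shares given for all genes are those of edgeR. Shares called by DESeq2 or voom were not determined, so counts by these tools cannot be judged against them. The common biological coefficient of variation was 0.481. No 2 livers of a group were close enough to be 1 library (chi-square per degree of freedom from 12 to 165 over 40 pairs). Subunit ratios used counts plus 0.5 on the log2 scale and two-sided exact permutation tests. Alternatives were the Wald test of DESeq2 1.42.0, voom of limma 3.58.1 with liver quality weights, other library sizes, other filters, fits of the compared groups alone, a block for the replicate number, a fold limit and each liver left out. The programs were tested on simulated counts. Genes named were the 10 members, their constitutive counterparts Psmb5, Psmb6 and Psmb7, from each further list up to 5 genes by smallest p with CORT and up to 3 with αACBP under CORT, and the 5 genes most like the members; further list genes were named for their function or where a small count needed them, after their values were seen. The members and all lists were chosen with earlier results of these data known, so counts over them are descriptions. The labels give each liver its own mouse, and same-numbered livers are different mice.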

Additional observations from a re-analysis of the deposited data

Results flagged for a closer look

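In 52 sets of 5 livers (each gene and ratio in each group), the gap between an extreme liver and its nearest neighbour was compared with the range of the group, and 3 exceeded the critical value of Dixon's test. Chance alone marks about 1 in 20 sets. H2-K1 in αACBP + CORT replicate 2 was at 2232 CPM, with the next liver at 1797 CPM. Tap1 in Isotype + CORT replicate 3 was at 42.6 CPM, with the next liver at 23.6 CPM. The Psmb10 to Psmb7 ratio of αACBP + Vehicle replicate 5 was 3.25, with the next liver at 1.69.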

How the results depend on the processing

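With CORT under isotype the count of 5 genes was 1 with the fold limit, 7 with DESeq2, 6 with voom, and 2 to 7 when each liver was left out. H2-D1 was lost in 10 of 20 omissions (Isotype + Vehicle replicates 1, 2, 3 and 5, Isotype + CORT replicates 1, 2 and 5, αACBP + Vehicle replicate 4, αACBP + CORT replicates 1 and 4), Psmb9 in 7 (Isotype + Vehicle replicates 2 to 5, Isotype + CORT replicates 1, 4 and 5) and Tap1 in 5 (Isotype + Vehicle replicates 2 and 4, Isotype + CORT replicates 1, 2 and 4), with adjusted p up to 0.102, 0.0899 and 0.0718, and Psmb8 and Tap2 in none. For αACBP under CORT the count of 3 was 7 with DESeq2, 0 with only the groups compared, and 1 to 5 with each liver left out. H2-D1 was lost in 16 omissions (adjusted p up to 0.12; not without Isotype + Vehicle replicate 4, Isotype + CORT replicate 3 or αACBP + Vehicle replicate 3 or 5), Psmb8 without Isotype + CORT replicate 1, and Tap1 in none, while Psmb9 passed in 4 (Isotype + CORT replicate 3, αACBP + Vehicle replicates 1 and 3, αACBP + CORT replicate 4). With CORT under αACBP DESeq2 called 1, for αACBP under vehicle DESeq2 called 1, voom 2, DESeq2's size factors 1 and the filter of 10 counts 1 (0 to 2 with each liver left out), and for the interaction DESeq2 called 2. The cause of these changes was not tested; a fit of fewer livers also has fewer degrees of freedom.

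The interaction of Nlrc5 turned to -0.016 with DESeq2, -0.22 with voom, -0.016 with DESeq2's size factors, -0.029 without the 20 most abundant genes, -0.019 with the filter of 10 counts and -0.00138 with the replicate block, and ranged from -0.26 to 0.23 with each liver left out. B2m with αACBP under CORT ranged from -0.011 to 0.11.

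Leaving out single livers moved the log2 ratio Psmb8 to Psmb5 with CORT under αACBP between -0.61 and -0.38. Psmb9 to Psmb6 moved between 0.93 and 1.28 with αACBP under CORT, -0.44 and 0.22 with CORT under αACBP, and -0.28 and 0.37 with αACBP under vehicle. Psmb10 to Psmb7 moved between -1.04 and -0.70 with CORT under isotype, 0.83 and 1.17 with αACBP under CORT, -0.98 and -0.56 with CORT under αACBP, and 0.69 and 1.08 with αACBP under vehicle. With 4 against 5 livers the exact test has fewer arrangements. H2-T10 with CORT lost its call without Isotype + Vehicle replicate 4, with voom and with only the groups compared, and H2-T23 without Isotype + Vehicle replicate 3 or Isotype + CORT replicate 2. Irf9 lost its call in 5 omissions with CORT (adjusted p up to 0.0918) and in 2 with αACBP under CORT (up to 0.0584), and Ptprc in 4 with αACBP under CORT (up to 0.0603); both calls of Irf9 and that of Ptprc with αACBP under CORT were also lost with only the groups compared.

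The replicate numbers did not pair the livers: deviations of same-numbered livers correlated between -0.10 and 0.097, and 3 of 20 livers correlated best with one of their own number. With the replicate block, CORT under isotype gave 4 calls, without H2-D1, and αACBP under CORT 3, with Psmb9 (adjusted p = 0.0309) in place of H2-D1.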
